A study of Mus musculus with 7 samples.

Results

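The monocyte chemokines Ccl2, Ccl7, Ccl8 and Ccl12 and the receptor Ccr2 were followed across the cells of 7 mouse tumors. These 5 genes were taken by symbol from the 33696 genes of the feature list, in which each symbol stood for 1 feature. Tumors were grown from JW23.3, a murine malignant peripheral nerve sheath tumor (MPNST) line that lacks Nf1 and Trp53, by implanting 5000000 cells under the flank skin of wildtype, immunocompetent C57/B6 female mice aged 5 to 6 weeks. In the irradiated group (n = 4), the tumor received 5 daily fractions of 2 Gy from day 7, with lead shielding elsewhere, and the control group (n = 3) received no radiation. All tumors were harvested on day 21, dissociated with papain and profiled by droplet single-cell RNA-seq of 3′ ends, 1 library per tumor. Every tumor came from the same line and mouse strain, so the groups describe 1 tumor model.

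CC chemokines are small secreted proteins that bind G protein–coupled receptors on leukocytes and direct their movement. Ccr2 is carried by classical (Ly6c-high) monocytes, which need it to leave the bone marrow, and it falls as monocytes mature into tissue macrophages. Ccl2, Ccl7 and Ccl12 are ligands of Ccr2 in the mouse, whereas mouse Ccl8 is best known as an agonist of Ccr8. Macrophages, fibroblasts, endothelial cells and many tumor cells can make Ccl2, and the gene responds to NF-κB and to inflammatory cytokines.

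The count tables held 39537 cells, of which 34300 passed filtering, with 2342 to 7451 cells and 53496570 to 153044123 UMIs (unique molecular identifiers, each standing for 1 captured transcript) in a library. Cells were assigned to classes by marker genes, none of them a member, which gave 10865 macrophage, 298 fibroblast, 394 endothelial, 1191 T/NK and 15376 tumor cells and left 17.0% of cells without a class. Endothelial values rest on 6 tumors, since irradiated tumor 2 had 15 such cells. Xist, which cells of the female host express, was part of the gates. Tumor-gated cells carried Col11a1 at 962 to 1964 UMIs per 1000000 UMIs of the class (CPM) and Crabp1 at 1345 to 2022 CPM. Both are on the list of 14 tumor markers, so their level follows in part from the gating. On that list, 11 genes had a median of at least 10 CPM in tumor-gated cells. Sox11 and Ngfr, also listed, reached no more than 0.011 and 0.094 CPM there. The Schwann cell lineage gene Sox10, which is not on the list, reached no more than 0.11 CPM. Pairs of libraries shared 3 to 19 cell barcodes, at most 0.397% of the smaller library. The libraries were also split into 2 technical sets by cell number, UMIs, genes per cell and mitochondrial share, a split that the labels do not name. It was the best of 63 but not a clear one, with 0.489 of the variation left within sets against 0.544 for the next, and control 1 was nearer to set 1 in cell number and mitochondrial share. Set 1 held irradiated 1, control 2 and control 3, and set 2 held irradiated 2, 3 and 4 and control 1, so that the sets are partly confounded with treatment.

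The chemokine genes lie side by side on chromosome 11 (GRCm38.p6, the assembly known as mm10). Ccl2 spans chr11:82035577-82037452, Ccl7 chr11:82045712-82047525, Ccl12 chr11:82101845-82103399 and Ccl8 chr11:82115185-82116799. The stretch of 81.2 kb from Ccl2 to Ccl8 holds 5 protein-coding genes, the other being the eosinophil chemokine Ccl11. Ccr2 lies on chromosome 9 (chr9:124101918-124109140). The neighbors Ccl12 and Ccl8 differed in which cells carried them, and the 250 bases before each RefSeq start, both on the plus strand, are shown for that reason, with the TATA motif (TATAAA) in capitals.
Ccl12, chr11:82101595-82101844: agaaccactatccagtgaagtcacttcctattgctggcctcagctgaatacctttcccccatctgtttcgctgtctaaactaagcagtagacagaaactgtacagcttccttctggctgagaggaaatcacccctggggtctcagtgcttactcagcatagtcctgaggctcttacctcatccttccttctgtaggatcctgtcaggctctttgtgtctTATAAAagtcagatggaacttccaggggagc
Ccl8, chr11:82114935-82115184: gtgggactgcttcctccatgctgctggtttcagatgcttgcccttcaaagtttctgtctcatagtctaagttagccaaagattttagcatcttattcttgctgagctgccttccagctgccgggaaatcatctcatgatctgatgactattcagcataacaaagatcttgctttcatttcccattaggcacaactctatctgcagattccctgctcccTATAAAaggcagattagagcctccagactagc
These windows were identical at 60.0% of their bases when aligned, against 51.2% for each of them with the window of Ccr2 on another chromosome. The Ccr2 window (chr9:124101933-124102182) lies inside the gene span given above rather than before it. The TATA motif started 31 bases before the start of Ccl12 and 32 bases before that of Ccl8, and it stood on the sense strand in 7.59% of 32851 promoter windows of that length in the genome and in 12.4% on either strand. Other motifs searched on both strands were AP-1 (TGANTCA), GAS (TTCNNNGAA), C/EBP (TTGCNNAA) and PU.1 (GAGGAAGT), with the longer NF-κB and ISRE motifs, and none of these letter strings was in either window. Among all windows, they were present on either strand in 6.75%, 7.02%, 9.56%, 2.44%, 45.8% and 2.98%, respectively. The longest exact run shared by any pair of member transcripts was 23 bases, between Ccl2 and Ccl7.

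Macrophages carried the highest level of every member among the macrophage, fibroblast, endothelial and tumor classes. UMIs were summed per tumor and class and compared with edgeR's quasi-likelihood test with the tumor as a block. Against tumor cells, all 5 members were higher in macrophages at an adjusted p under 0.05, beside 41.1% of 15238 genes called higher and 84.9% called in either direction. Against fibroblasts, again all 5 were higher, beside 37.8% called higher and 70% in either direction. Against endothelial cells, all 5 were higher, beside 33% called higher and 61.3% in either direction. With that many genes called, the calls say little about the members, and the sizes and the order of the classes are given gene by gene. CPM of different genes are not set against each other.

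**Figure D1:**
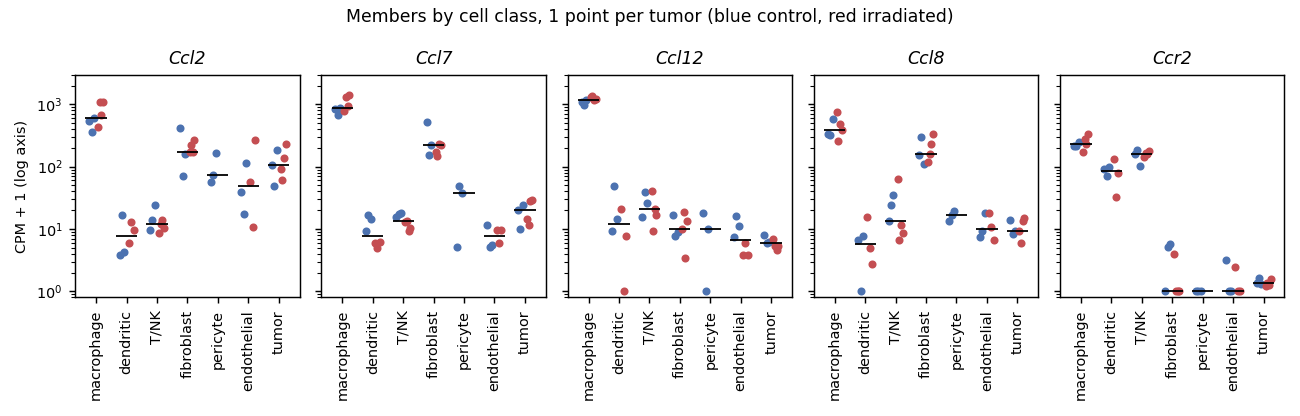
Level of each member (CPM + 1, log axis) in macrophage, dendritic, T/NK, fibroblast, pericyte, endothelial and tumor cells, 1 point per tumor with at least 20 cells of the class (blue, control; red, irradiated), with the median as a line. Ccl2 overlapped between fibroblasts (70.5 to 421 CPM) and tumor cells (48.0 to 231 CPM), Ccl12 dropped from 982 to 1359 CPM in macrophages to 17.4 CPM or less in fibroblasts, and Ccr2 was shared by macrophages, dendritic cells and T/NK cells.

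Ccl2, the best-known monocyte attractant, was of the 5 members the one whose level differed least between macrophages and tumor cells and between macrophages and endothelial cells. Macrophage-gated cells of the control tumors carried 547, 364 and 599 CPM, and those of irradiated tumors 1 to 4 carried 429, 1092, 667 and 1083 CPM. Irradiated tumors 2 and 4 stood above all others, and irradiated tumor 1 lay within the control range. In fibroblasts, which form the connective tissue, Ccl2 stood at 421, 70.5 and 158 CPM in the controls and at 169, 220.5, 171 and 263 CPM in the irradiated tumors. Tumor cells carried 107, 48.0 and 181 CPM in the controls and 90.8, 59.6, 138 and 231 CPM in the irradiated tumors. The ranges of these 2 classes overlapped. Endothelial cells, which line the vessels, carried 38.4, 16.6 and 112 CPM in the controls and 56.2, 9.92 and 266 CPM in irradiated tumors 1, 3 and 4. Their high value in irradiated tumor 4 came from 94 UMIs in 27 cells, of which 29.6% had any. Macrophages exceeded fibroblasts by a log2 difference of 2.04 ± 0.25 (SE, n = 7 tumors, adjusted p = 4.64e-06, edgeR), tumor cells by 3.01 ± 0.27 (adjusted p = 1.48e-06) and endothelial cells by 3.57 ± 0.47 (n = 6, adjusted p = 0.000672). The neighbors below did not pass, with fibroblasts 0.81 ± 0.30 above tumor cells (adjusted p = 0.0567, edgeR) and endothelial cells below tumor cells by −1.01 ± 0.41 (adjusted p = 0.079, edgeR). Fibroblasts exceeded endothelial cells by 1.80 ± 0.46 (adjusted p = 0.00822, edgeR, beside 53% of genes called in either direction), a call that was lost with stricter gates (adjusted p = 0.288). The fibroblast and tumor difference passed the threshold in 4 of 14 alternatives, namely DESeq2 (adjusted p = 0.00883), clusters (adjusted p = 0.0408), all deposited cells (adjusted p = 0.0429) and without control tumor 3 (adjusted p = 0.0153). The endothelial and tumor difference passed in 5 of 13, namely DESeq2 (adjusted p = 0.00279), clusters (adjusted p = 0.0351), all deposited cells (adjusted p = 0.0228), without irradiated tumor 3 (adjusted p = 0.0029) and without irradiated tumor 4 (adjusted p = 0.00941).

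RNA released by other cells adds UMIs to every droplet, so each chemokine was also expressed as a percent of the macrophage level of the same tumor and set beside C1qa, a complement gene of macrophages. C1qa in fibroblasts stood at 0.348% to 0.684% of its macrophage level, and in tumor cells at 0.175% to 0.385%. Ccl2 in fibroblasts stood at 19.4% to 77.0% and in tumor cells at 5.45% to 30.2%. In T/NK cells, which are not known as a source of Ccl2, it stood at 0.855% to 3.85%, and C1qa there at 0.500% to 2.10%. C1qa is itself on the macrophage marker list, and the fibroblast, tumor and T/NK gates admitted at most 5 of those 14 markers. Its level there was thus held down by the gating, and it is no measure of released RNA. Ccl2 is on no marker list. In fibroblasts and tumor cells Ccl2 stood above its own range in T/NK cells in every tumor, relative to macrophages. The macrophage marker list summed to 251 to 620 CPM in fibroblasts and 45.1 to 103 CPM in tumor cells, against 22921 to 29511 CPM in macrophages, with no marker of the 14 at 0 in all tumors. Tumor markers summed to 258 to 986 CPM in fibroblasts against 5522 to 6802 CPM in tumor cells.

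Ccl7, a ligand of Ccr2 and of further CC receptors, was shared by macrophages and fibroblasts. Macrophages carried 835, 673 and 870.4 CPM in the controls and 785, 1300.3, 944 and 1428 CPM in irradiated tumors 1 to 4. As for Ccl2, irradiated tumors 2 and 4 were the highest and irradiated tumor 1 lay among the controls. Fibroblasts carried 509.5, 150.5 and 221 CPM in the controls and 172, 147, 226 and 224 CPM in the irradiated tumors, so that control tumor 1 stood apart as the highest. Tumor cells carried 8.95 to 28.5 CPM over the 7 tumors and endothelial cells 4.14 to 10.7 CPM, the latter on 2 to 6 UMIs a tumor. Macrophages exceeded fibroblasts by 2.41 ± 0.27 on the log2 scale (adjusted p = 2.00e-06, edgeR), and fibroblasts exceeded tumor cells by 3.66 ± 0.21 (adjusted p = 1.15e-08, beside 49.5% of genes called in either direction). Endothelial cells lay below tumor cells by −1.51 ± 0.30 (adjusted p = 0.000126, edgeR, beside 56.8% called in either direction), a direction that turned to 0.57 when classes came from clusters. Relative to macrophages, Ccl7 stood at 11.3% to 61.0% in fibroblasts, at 0.815% to 2.83% in tumor cells and at 0.648% to 2.43% in T/NK cells, so that tumor cells and T/NK cells overlapped.

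Ccl8 was also shared by macrophages and fibroblasts. Macrophages carried 334, 316 and 573 CPM in the controls and 739, 259, 475 and 379 CPM in irradiated tumors 1 to 4. Here irradiated tumor 1 was the highest and irradiated tumor 2 the lowest of all 7, whereas irradiated tumor 2 stood above irradiated tumor 1 for Ccl2 and Ccl7. Fibroblasts carried 154, 293 and 111 CPM in the controls and 119, 159, 231 and 327 CPM in the irradiated tumors. This was 16.1% to 92.6% of the macrophage level of the same tumor, and fibroblasts came nearest to macrophages in control tumor 2 and irradiated tumor 4. Tumor cells carried 5.01 to 13.8 CPM and endothelial cells 5.67 to 17.3 CPM. T/NK cells carried 5.58 to 63.4 CPM, the highest in irradiated tumor 1. As a percent of macrophages, tumor cells stood at 1.10% to 3.93%, endothelial cells at 1.49% to 3.00% and T/NK cells at 2.00% to 8.59%, which overlapped. Macrophages exceeded fibroblasts by a log2 difference of 1.42 ± 0.30 (adjusted p = 0.000756, edgeR), the smallest such difference among the 5 members. Fibroblasts exceeded tumor cells by 4.34 ± 0.23 (adjusted p = 1.04e-08) and endothelial cells by 4.12 ± 0.35 (adjusted p = 3.48e-07, edgeR). Endothelial and tumor cells differed by 0.18 ± 0.32 (adjusted p = 0.647, edgeR), with a sign that turned without irradiated tumor 1 and without control tumor 3.

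Ccl12, a further Ccr2 ligand of the mouse, was by contrast low outside macrophages. Macrophages carried 1099, 982 and 1153 CPM in the controls and 1326, 1359, 1160.2 and 1198 CPM in the irradiated tumors. Every irradiated tumor lay above every control, as was so for 3.16% of the genes tested in macrophages, although control tumor 3 and irradiated tumor 3 lay side by side. Fibroblasts carried 1 to 9 UMIs of Ccl12 in a tumor, which gave 2.48 to 17.4 CPM and 0.214% to 1.43% of the macrophage level. For C1qa, itself a gate marker, the corresponding range was 0.348% to 0.684%. Tumor cells carried 3.62 to 7.09 CPM, or 0.312% to 0.645% of macrophages, and endothelial cells 2.83 to 15.2 CPM. Macrophages exceeded fibroblasts by 7.19 ± 0.30, endothelial cells by 7.54 ± 0.25 and tumor cells by 8.35 ± 0.18 on the log2 scale (adjusted p = 1.50e-10, 9.78e-13 and 1.91e-11, edgeR). Fibroblasts stood 0.95 ± 0.34 above tumor cells (adjusted p = 0.0256, edgeR), a call that was lost without control tumor 1, without irradiated tumor 2, without irradiated tumor 4, with no filter on low counts (adjusted p = 0.0808) and with stricter gates (adjusted p = 0.61). Over 14 alternatives, this difference ranged from 0.39 to 3.44.

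Ccr2, the receptor, was carried by macrophage-gated and T/NK cells. Macrophage-gated cells held 211, 212 and 250.2 CPM in the controls and 170.1, 275, 234 and 327 CPM in irradiated tumors 1 to 4. Irradiated tumor 1 was the lowest and irradiated tumor 4 the highest, on either side of the controls. T/NK cells held 160, 183 and 99.9 CPM in the controls and 142, 163, 161 and 179 CPM in the irradiated tumors. That was 39.9% to 86.4% of the macrophage level, where C1qa, itself a gate marker, reached 2.10% at most. Dendritic cells held 31.6 to 180.1 CPM, counting all 7 tumors with 15 to 45 cells. Fibroblasts had no Ccr2 UMI in 4 tumors, 3 in control tumors 2 and 3 and 2 in irradiated tumor 1, and with no UMI the floor of 3 UMIs corresponded to 5.80 to 9.44 CPM. Endothelial cells had 0 or 1 UMI a tumor, and tumor cells 0.200 to 0.611 CPM. Macrophages exceeded tumor cells by 9.78 ± 0.18 on the log2 scale (adjusted p = 1.07e-11, edgeR).

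Single cells gave the same order as the summed counts. In macrophages, 42.7% to 78.8% of cells had a Ccl2 UMI, against 2.26% to 7.14% of T/NK cells. The median depth was 4491 to 12451 UMIs in macrophages and 2088 to 5558 in T/NK cells, so cells were also thinned to 2000 UMIs, which left out 468 control and 204 irradiated macrophages and 144 control and 89 irradiated T/NK cells. After thinning, Ccl2 was present in 30.6% to 56.5% of macrophages and 1.51% to 4.94% of T/NK cells. Thinned tumor cells had Ccl2 in 4.04% to 15.8% of cells (15.8% to 48.0% before thinning, at median depths of 14428.5 to 31278) and thinned fibroblasts in 6.74% to 28.5% (15% to 52% before, at 8182.5 to 17440.0), leaving out 120 control and 237 irradiated tumor cells and 2 control and 1 irradiated fibroblasts. Thinned tumor cells had Ccl12 in 0.843% to 1.99% of cells, under the 2.17% to 7.67% of T/NK cells. Thinned Ccr2 was present in 22.2% to 44.1% of macrophages and in 0.0538% to 0.148% of tumor cells. Within macrophages, the tenth of cells with the highest level of a gene held a median of 81.7% of Ccl8, the most uneven member, 54.4% of Ccl2, 51.4% of Ccl7, 48.8% of Ccl12 and 43.3% of Ccr2. The corresponding share was 22.1% for C1qa and 24.2% for the macrophage receptor gene Csf1r.

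The share of each gene's UMIs held by a class depends on how many cells of that class a tumor yielded as well as on their level. For Ccl2, macrophages held 35.6%, 46.0% and 34.4% of the UMIs in the controls and 34.3%, 81.6%, 46.8% and 68.0% in irradiated tumors 1 to 4. Tumor cells held 39.7%, 27.6% and 54.7% in the controls and 54.1%, 11.3%, 43.2% and 21.7% in the irradiated tumors. Tumor cells thus held more Ccl2 UMIs than macrophages did in control tumors 1 and 3 and in irradiated tumor 1. Averaged over the 7 tumors, macrophages held 80.7% of Ccl7, 76.2% of Ccl8, 85.8% of Ccl12 and 83.5% of Ccr2, and tumor cells held 7.04% of Ccl7, 7.31% of Ccl8, 1.71% of Ccl12 and 0.570% of Ccr2. Fibroblasts held 0.537% of Ccl2 and 1.59% of Ccl8, and T/NK cells 3.09% of Ccr2. Cells without a class held 13.6% of Ccl2.

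**Figure D2:**
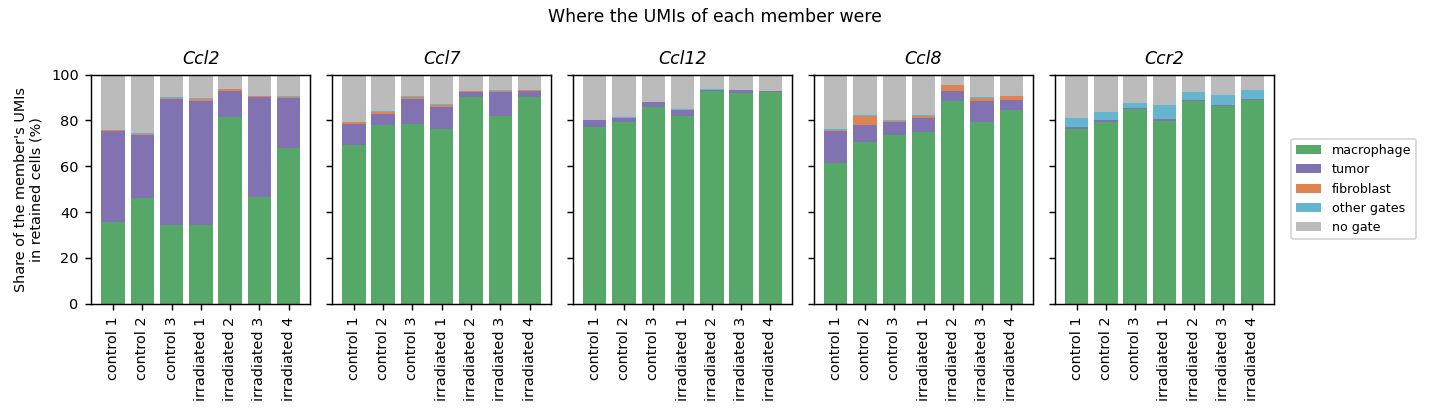
Share of each member's UMIs in the retained cells of a tumor (percent) held by macrophage, tumor and fibroblast cells, by the other gates together and by cells without a gate, 1 stacked bar per tumor. Macrophages held most UMIs of Ccl7, Ccl8, Ccl12 and Ccr2 in every tumor, and tumor cells held 11.3% to 54.7% of Ccl2.

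Macrophage-gated cells span a range from monocytes to mature macrophages, and the members were split along it. A monocyte subgate (Ly6c2, Plac8, Chil3 and other monocyte genes) held 245 cells and a C1q subgate (C1qa, Mrc1, Trem2, Apoe and others) 9163 cells. Neither list holds a member. The comparison rests on control 1 and irradiated 2, 3 and 4, the tumors with at least 20 monocyte-subgated cells, all of them libraries of set 2. Ccl2 stood at 645, 2665, 1290.1 and 1628 CPM in the monocyte subgate and at 527, 938, 668 and 879 CPM in the C1q subgate, in that order of tumors, and was higher in monocytes in 4 of 4 tumors. Ccr2 stood at 444, 449, 468 and 631 CPM in monocytes and at 183, 247, 213 and 265 CPM in C1q cells, with no overlap. Ccl12 went the other way, with 318, 714, 228 and 498 CPM in monocytes and 1199, 1380.3, 1252 and 1221 CPM in C1q cells. Ccl8 rested on 3, 3, 1 and 4 UMIs in monocytes, or 4.41 to 9.45 CPM, with exact Poisson 95% limits that reached 33.4 CPM at most and cover counting error only. The C1q subgate held 395, 279, 525 and 482 CPM of Ccl8. Ccl7 was mixed, with 170.0, 1329, 846 and 483 CPM in monocytes and 880, 1265, 963 and 1348 CPM in C1q cells, and was higher in monocytes in 1 of 4 tumors.

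By edgeR's test, monocytes exceeded C1q cells in Ccl2 by a log2 difference of 0.97 ± 0.11 (adjusted p = 2.64e-17) and in Ccr2 by 1.19 ± 0.13 (adjusted p = 2.19e-18). Ccl8 was lower by −5.94 ± 0.26 (adjusted p = 4.16e-112) and Ccl12 by −1.51 ± 0.12 (adjusted p = 1.10e-24), so that 4 of 5 members passed, beside 32.3% of 10998 genes. Ccl7 did not pass (−0.87 ± 0.54, adjusted p = 0.357, edgeR). These p-values are very small because the fit took the spread from all genes together, and the values of the 4 tumors are the better guide. Without control tumor 1, Ccl7 passed (adjusted p = 0.0125, edgeR), and with subgates taken within macrophage clusters the Ccl2 call was lost (adjusted p = 0.299). In the other 3 tumors, with 7 to 13 monocyte-subgated cells, Ccl2 in monocytes ranged from 260.1 to 701 CPM. All macrophage-gated cells of these tumors carried 429, 364 and 599 CPM (irradiated 1, control 2 and control 3). The lowest monocyte value, that of control 2, lay below each of these. It rests on 7 cells with 23065 UMIs of all genes between them, and it is set against all macrophage-gated cells rather than the C1q subgate. On so few cells the direction in these 3 tumors was not settled.

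**Figure D3:**
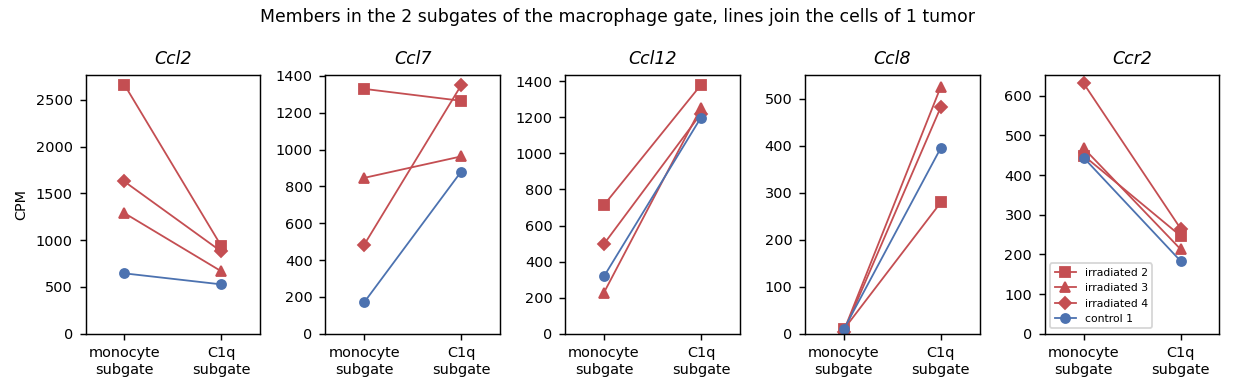
Level of each member (CPM, axis from 0) in the monocyte and C1q subgates of macrophage-gated cells, with lines joining the values of 1 tumor (control 1 in blue, irradiated 2, 3 and 4 in red). Ccl2 and Ccr2 were higher in monocytes in all 4 tumors, Ccl8 and Ccl12 were lower in all 4, and Ccl7 was higher in 1 of 4.

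Clusters, computed without the members, gave a finer view, described without a test. Clusters are known here by their leading genes, and values are medians over tumors. Cluster 9 (3693 cells), led by Fat3, Npl, Cbr2, Ccl8 itself and Gas6, held 1121 CPM of Ccl8 and 66.6 CPM of Ccr2. Cluster 8, led by the MHC class II genes H2-Eb1 and H2-Aa (2351 cells), held 148 CPM of Ccl8 and 402 CPM of Ccr2. Ccl8 and Ccr2 were thus placed in opposite order in macrophage clusters 8 and 9. Cluster 1 (Slfn4, Slfn1, Ms4a4c; 4040 cells) held 1371 CPM of Ccl7 and 702 CPM of Ccl2. In cluster 21, led by Atp6v0d2, Acp5 and Ocstamp, genes of osteoclasts and of fusing macrophages, all 5 members were low, with medians of 15.9 to 75.1 CPM. Cluster 23, led by S100a9 and S100a8 and left unnamed, held 547 CPM of Ccl2, 448 CPM of Ccr2 and 6.53 CPM of Ccl8 over 5 tumors, with Ccl2 ranging from 19.7 to 2678 CPM.

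**Figure D4:**
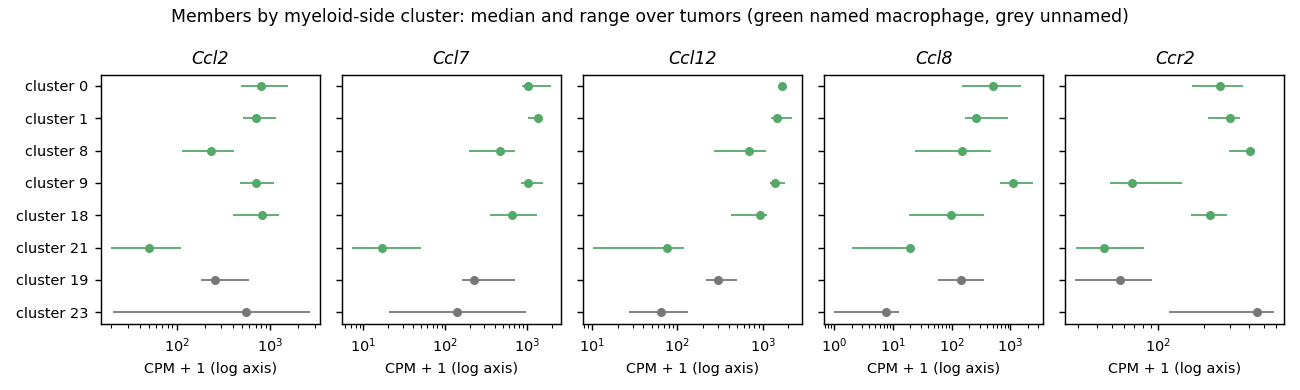
Level of each member (CPM + 1, log axis, with a scale of its own in each panel) in 8 myeloid-side clusters, as the median (point) and range (line) over tumors, with clusters named macrophage in green and unnamed ones in grey. Ccl8 was highest in cluster 9, at a median of 1121 CPM, where Ccr2 was at 66.6 CPM, and members in cluster 21 were at 75.1 CPM or less.

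On the tumor side, Ccl2 also differed between clusters. Clusters 14 and 16, both led in part by Mdk and Map2, held medians of 276 CPM and 291 CPM over the 5 and 4 tumors with enough cells. An unnamed Xist-low cluster led by Gm4841, Gbp6 and Ifit1, which are interferon-induced genes, held 269.6 CPM over 7 tumors. Cluster 7 (Cadm2, Pcdh9), cluster 10 (Wif1, Tnfrsf19) and cluster 13 (Mia, Snorc, Cnmd, genes of cartilage) held 9.93, 11.1 and 5.87 CPM over 7, 3 and 6 tumors. Tumor cells were thus not uniform in Ccl2.

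Irradiated and control tumors were compared next, to ask whether any member differed 14 days after the start of radiation. By edgeR, 0% of the 12950 genes tested in macrophages were called, and likewise 0% of 7304 in fibroblasts, 7464 in endothelial cells, 17457 in tumor cells and 19560 over all retained cells, at an adjusted threshold of 0.05. Before adjustment, 701, 275, 321, 215 and 429 genes lay under 0.05. DESeq2 called 3, 2, 2, 1 and 0 genes, none of them a member.

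In macrophages, all 5 members had a positive fold change that did not pass. The log2 fold change (irradiated over control) was 0.68 ± 0.35 (SE) for Ccl2, with group means of 818 ± 326 and 503 ± 123 CPM (SD, n = 4 and 3, adjusted p = 0.818, edgeR). For Ccl7 it was 0.47 ± 0.22, with means of 1114 ± 300.1 and 793 ± 105 CPM (n = 4 and 3, adjusted p = 0.818, edgeR). For Ccl12 it was 0.20 ± 0.11, with means of 1261 ± 96.4 and 1078 ± 87.5 CPM (n = 4 and 3, adjusted p = 0.818, edgeR), and Ccl12 was the only member whose groups did not overlap, beside the 3.16% of all genes given above. For Ccl8 and Ccr2 the values were 0.16 ± 0.37 (adjusted p = 0.934) and 0.14 ± 0.21 (adjusted p = 0.891, edgeR), and the sign turned without irradiated tumor 1 for Ccl8 (−0.17) and without irradiated tumor 4 for Ccr2. The median over all genes was −0.01. Within set 1, with 1 irradiated tumor, the irradiated minus control difference in log2 CPM was −0.12 for Ccl2, 0.04 for Ccl7, 0.79 for Ccl8, 0.32 for Ccl12 and −0.44 for Ccr2. Within set 2, with 1 control, it was 0.76, 0.53, 0.11, 0.17 and 0.39. Ccl7, Ccl8 and Ccl12 kept a positive sign in both sets, and Ccl2 and Ccr2 did not.

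**Figure D5:**
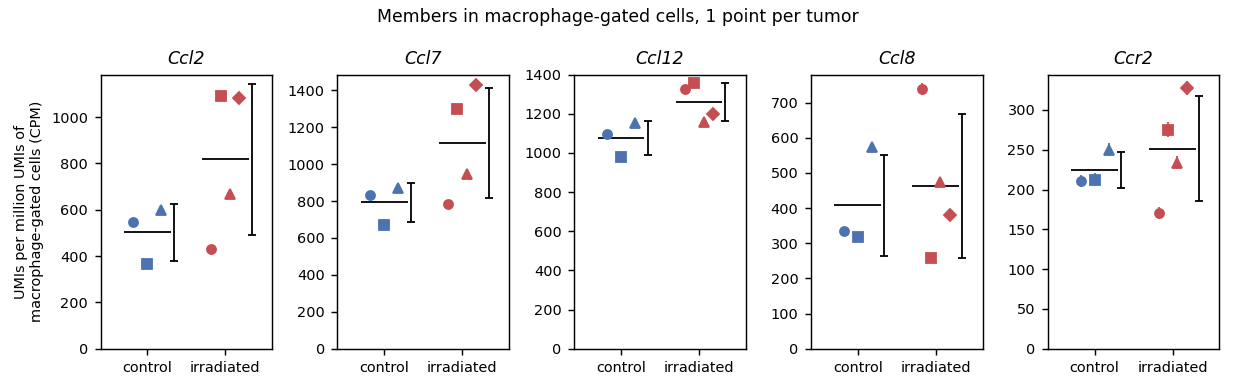
Level of each member (CPM) in macrophage-gated cells, 1 point per tumor (circle, square, triangle and diamond for tumors 1 to 4 of a group), with the group mean as a line and its SD as a bar beside the points, and the 95% Poisson interval of each value drawn on it. The groups were apart only for Ccl12, with control tumor 3 at 1153 CPM and irradiated tumor 3 at 1160.2 CPM.

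Other measures moved in part with these levels, and their part in them was not tested. Monocyte-subgated cells made up 0.417%, 3.72%, 2.04% and 8.41% of macrophage-gated cells in irradiated tumors 1 to 4 and 3.01%, 0.304% and 0.587% in the controls. This difference of 2.35 percentage points gave p = 0.343 in a two-sided exact permutation test (n = 4 and 3), for which the smallest possible p is 0.0286. The difference was 0.76 points without irradiated tumor 4, 3.42 without irradiated tumor 1 and 1.23 with stricter gates. The subgate asked for at least 3 of 9 monocyte genes in a cell, so the share can also depend on depth. Median depth of macrophage-gated cells was 10286 to 12451 UMIs in tumors of set 2 and 4491 to 6304 in those of set 1. The share was not recomputed at equal depth. The tumors with the highest Ccr2 in macrophages, irradiated 4 and 2, were also those with the highest percent of monocyte-subgated cells. The order did not hold below them. Control 1, at 3.01%, carried 211 CPM of Ccr2, and control 3, at 0.587%, carried 250.2 CPM. The summed level of 16 interferon response genes in macrophages was 1881, 1045 and 1026 CPM in the controls and 1159, 2984, 2333 and 4212 CPM in the irradiated tumors. Irradiated tumors 2, 3 and 4 were the highest in both this sum and Ccl2. Both this sum and the monocyte share were higher in every tumor of set 2, control 1 included, than in every tumor of set 1, irradiated 1 included. Whether set or treatment accounts for this was not tested.

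Over all retained cells the members spread further. Ccl7 stood at 132, 126 and 155 CPM in the controls and at 108, 350.5, 188 and 544 CPM in irradiated tumors 1 to 4, with a log2 fold change of 1.01 ± 0.49 (adjusted p = 0.966, edgeR). The fold changes of Ccl2, Ccl8, Ccl12 and Ccr2 were 0.70 ± 0.47, 0.34 ± 0.32, 0.66 ± 0.33 and 0.76 ± 0.51 (adjusted p = 0.966 for each, edgeR). The macrophage share of retained cells was 24.0%, 30.9% and 33.6% in the controls and 25.5%, 39.0%, 32.6% and 49.2% in the irradiated tumors. In such whole-tumor sums, fewer cells of a type and less RNA per cell cannot be told apart, and irradiated tumors 2 and 4, which were highest in Ccl7, also had the highest macrophage shares. Within set 1 the differences of Ccl2, Ccl7, Ccl12 and Ccr2 turned negative (−0.35, −0.37, −0.12 and −0.82).

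Outside macrophages, no member passed. In fibroblasts, the log2 fold change of Ccl7 was −0.63 ± 0.38 (adjusted p = 0.910, edgeR). It was negative in all 18 alternatives but ranged from −0.95 to −0.0092 with a tumor left out, the latter without control tumor 1. Ccl2 and Ccl8 stood at −0.07 ± 0.50 (adjusted p = 0.992) and 0.10 ± 0.40 (adjusted p = 0.982, edgeR). Control tumor 1, with 20 fibroblasts, had the highest Ccl2 and Ccl7, and without it the Ccl2 fold change was 0.80. Its fibroblasts also had the highest sum of interferon response genes, 4862 CPM, against 879 to 3784 CPM in the other tumors. In tumor cells the fold changes were 0.07 ± 0.53 for Ccl2, 0.09 ± 0.42 for Ccl7, −0.04 ± 0.32 for Ccl8, −0.39 ± 0.22 for Ccl12 and −0.44 ± 0.42 for Ccr2 (adjusted p = 1.00 for each, edgeR). In endothelial cells, Ccl2 alone had enough counts, and its fold change of 0.83 ± 1.23 (adjusted p = 0.999, edgeR) became −0.69 without irradiated tumor 4. The gap between macrophages and fibroblasts in log2 CPM of Ccl7 was 2.51 ± 0.49 in irradiated and 1.61 ± 0.79 in control tumors (SD, n = 4 and 3, p = 0.114 in a two-sided exact permutation test). Of 15 such tests of a difference between classes none passed 0.05, the lowest being p = 0.0571 for Ccl12 between macrophages and tumor cells (exact permutation, n = 4 and 3, Benjamini-Hochberg adjusted p = 0.857), where the gap was 7.84 in irradiated and 7.33 in control tumors.

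Genes of the surrounding pathway were described in macrophages from lists, with the median of all genes at −0.01 and no list gene called by edgeR. Of 6 tested CC chemokines outside the members, 3 had a positive fold change, and the largest changes were those of Ccl24 (−1.49 ± 0.38, on means of 0.591 and 1.62 CPM), Ccl6 (0.70 ± 0.30) and Ccl5 (0.52 ± 0.37), all at an adjusted p of 0.818 or above. Of 7 genes of further chemokine receptors and the ligand Cx3cl1, 3 were positive, with Ccr7 at 1.00 ± 1.17, Ccr3 at −0.87 ± 0.52 and Ccr4 at 0.42 ± 1.54, each on a mean of 1.13 CPM or less. Ccrl2, an atypical relative of the chemokine receptors, stood at 0.04 ± 0.18. Of 4 tested cytokines that induce Ccl2, Tnf was positive (0.45 ± 0.27), and Il1a (−1.05 ± 0.74) and Il1b (−0.35 ± 0.48) were not. Among 7 NF-κB genes, 4 were positive, with Nfkbiz at 0.28 ± 0.17, Nfkb1 at −0.18 ± 0.11 and Nfkbia at 0.12 ± 0.23. Of 9 monocyte genes, 8 were positive with a median of 0.97, led by Hp (1.96 ± 0.97), Ly6c2 (1.66 ± 1.06) and Plac8 (1.51 ± 1.02), which were negative within set 1. All 16 interferon response genes were positive with a median of 1.00, among them Cxcl9 (1.32 ± 0.66), Mx1 (1.12 ± 0.46) and Gbp2 (1.11 ± 0.52). Of 18 genes that respond to dissociation, 3 were positive with a median of −0.12, and Fosb, Jund and Nr4a1 stood at −0.39 ± 0.16, −0.37 ± 0.14 and −0.35 ± 0.15.

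Genes with a pattern like that of a member were sought among 11356 genes over 28 profiles, namely 4 classes (macrophage, T/NK, fibroblast, tumor) in 7 tumors. Profiles of 1 tumor share a library, and the differences between classes make most of each correlation, so the values are descriptive. Ccl12 was most like the complement genes C1qb (Pearson r = 0.99) and C1qa (0.98), followed by Gm56663, Fcgr2b and C1qc. C1qa, C1qb and C1qc are markers of the macrophage gate, so their low level in the other classes was set in part by the gating. Ccr2 was most like the leukocyte genes Cd48 (0.99), Stap1, Ms4a6b, Was and Irag2. Ccl2 was nearest to Niban2 (0.95), Tgm2, Snx24, Rab7b and Sash1. Among the genes most like Ccl7 were Dapk1 (0.96), Bach1, Ifi207 and Zeb2, and among those most like Ccl8 were Fam217b (0.95), Dapk1, P2rx4 and Tmem87b. Between members, r was 0.93 for Ccl7 with Ccl8, 0.86 for Ccl2 with Ccl7, 0.74 for Ccl12 with Ccr2 and −0.11 for Ccl2 with Ccr2.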

How the data were processed

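The deposited gene by cell matrices hold raw UMI counts, which the authors made with Cell Ranger against mm10 (the file headers name version 8.0.0). No further normalization had been applied. Filtering kept cells that lay, for UMIs, genes and the mitochondrial and ribosomal shares, no more than 3 median absolute deviations from the middle of their library. Scrublet marked 2.10% of retained cells, which were removed only in an alternative. Classes were gated on marker lists without the members (macrophage cells, at least 6 of 14 markers), with Xist to part host from tumor cells. Clusters used 3000 variable genes, 30 components and Leiden resolution 1 (scanpy 1.11.5).

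For each class and tumor, counts were added up where there were at least 20 cells, and tested with edgeR 4.0.16 (quasi-likelihood, TMM, Benjamini-Hochberg over all genes tested), without a replicate block for treatment and with the tumor as a block between classes. CPM is the count per 1000000 UMIs of a class in a tumor. Single values were compared by exact permutation. Shares of cells were also computed after thinning to 2000 UMIs, and 3 UMIs was the floor. Intervals are exact Poisson or Wilson at 95% and cover counting error only. Depth per library was 53496570 to 153044123 UMIs.

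The members and lists were chosen with earlier results of these data known. The text names the 5 members, for each list the 3 genes with the largest change in macrophages where none passed, and the 5 genes most like each member at a mean of at least 10 CPM in a class, apart from an item not reported here. Alternatives were DESeq2 1.42.0, RLE scaling, no filter, each tumor left out, stricter gates, clusters, all deposited cells, doublets removed, the technical set as a term and the replicate number as a block. The labels do not say that equal replicate numbers share anything, and same-numbered tumors did not deviate together. The tests were tried on simulated data first. Promoter sequences are from RefSeq (GRCm38.p6), and 2 of the 4 chemokine genes were in that table.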

Additional observations from a re-analysis of the deposited data

Results flagged for a closer look

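In 31 sets of 4 irradiated tumors examined, 2 had a tumor far from the others, and chance flags about 1 in 20. Ccl8 in T/NK cells stood at 63.4 CPM in irradiated tumor 1 against 10.8 CPM in the next irradiated tumor, and Ccl8 in macrophages was also highest there. Ccr2 in fibroblasts stood at 2.97 CPM in irradiated tumor 1, which is 2 UMIs, against 0 in the other irradiated tumors.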

How the results depend on the processing

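The higher level of all 5 members in macrophages than in tumor, fibroblast or endothelial cells kept its direction and call in every alternative run. The treatment comparison is limited by 4 and 3 tumors and by sets of libraries that are partly confounded with treatment, and fibroblast and endothelial values by 20 to 80 and 27 to 119 cells a tumor. Causes of the changes below were not tested.

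For treatment, DESeq2 called 3 genes in macrophages, 2 in fibroblasts, 2 in endothelial cells and 1 in tumor cells against 0 by edgeR, stricter gates gave 2 in fibroblasts and no filter on low counts gave 53 in endothelial cells. With a tumor left out, the counts were 0 to 1 in fibroblasts and 0 to 1 in endothelial cells, each 1 without irradiated tumor 1, and 2312 to 3433 genes for monocytes against C1q cells, the lowest without irradiated tumor 4, against 3548 with all. Stricter gates left too few cells for that comparison. With stricter gates macrophages held 70.6% of Ccl7, 74.4% of Ccl12 and 71.4% of Ccr2 UMIs. With classes from clusters, endothelial cells held 0.394% of Ccl2, 0.198% of Ccl7, 0.153% of Ccl8, 0.117% of Ccl12 and 0.134% of Ccr2, fibroblasts 1.28% of Ccl2, 1.49% of Ccl7, 0.463% of Ccl12 and 0.368% of Ccr2, and tumor cells 1.06% of Ccr2.

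Log2 fold changes for treatment that turned sign were as follows, none of them called in the main comparison. With the technical set as a term, they were −0.0048 for Ccr2, 0.22 for Il1b and −0.062 for Nfkbia in macrophages, −0.10 for Ccl8 in fibroblasts and −0.067 for Ccl7 in tumor cells. With the replicate number as a block, which left 0 genes called in each of the 5 treatment comparisons, they were −0.037 for Ccr2 and −0.032 for Nfkbia in macrophages, 0.10 for Ccl2 and −0.10 for Ccl8 in fibroblasts, −1.10 for Ccl2 in endothelial cells, and −0.16 for Ccl2 and −0.079 for Ccl7 in tumor cells. Same-numbered tumors correlated at −0.44 to 0.14 in their deviations, so the numbers were not taken to pair them. Stricter gates gave 1.48 for Ccl2 and −0.41 for Ccl8 in fibroblasts, and clusters gave −0.22 for Ccl2 in endothelial and 0.091 for Ccl8 in tumor cells. Between endothelial and tumor cells, Ccl7 turned to 0.57 with clusters and Ccl8 to −0.010 with no filter.

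Within set 1, differences turned to −0.12 for Ccl2, −0.44 for Ccr2, −0.22 for Ccl5, −0.64 for Ccr7, −0.53 for Ccr4, −0.044 for Ccrl2, 0.24 for Il1b, −0.056 for Nfkbiz, −0.45 for Nfkbia, −0.087 for Hp, −0.97 for Ly6c2 and −1.06 for Plac8 in macrophages. They turned to 0.67 for Ccl2 and −0.60 for Ccl8 in fibroblasts, to −0.040 for Ccl2, −0.12 for Ccl7, 0.063 for Ccl8 and 0.19 for Ccl12 in tumor cells, and to −0.35 for Ccl2, −0.37 for Ccl7, −0.12 for Ccl12 and −0.82 for Ccr2 over all cells. Within set 2 they turned to 0.40 for Il1a and 0.23 for Il1b in macrophages and 0.023 for Ccr2 in tumor cells.

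With each tumor left out in turn, the ranges that crossed 0 in macrophages were −0.17 to 0.49 for Ccl8, −0.015 to 0.29 for Ccr2, −0.11 to 0.21 for Ccrl2, −0.0061 to 0.28 for Nfkbia, −0.19 to 5.81 for Ccr4 and −0.82 to 0.052 for Il1b. In fibroblasts they were −0.50 to 0.80 for Ccl2 and −0.18 to 0.61 for Ccl8, and in endothelial cells −0.69 to 1.97 for Ccl2. In tumor cells they were −0.19 to 0.19 for Ccl8, −0.22 to 0.49 for Ccl7 and −0.30 to 0.74 for Ccl2. Ccl8 between endothelial and tumor cells ranged from −0.11 to 0.37.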
